A study of Mus musculus with 8 samples.

Results

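Chromosomes 6 and 16 of the mouse held 3169 of the 37230 accessible chromatin regions found in EpH4 and EpRas mammary gland epithelial cells, 1950 on chromosome 6 and 1219 on chromosome 16. They were chosen because a smaller share of the peaks lay on them in EpRas cells than in EpH4 cells, and all of their regions were kept. Accessible regions had been mapped by FAIRE-seq, in which the DNA left free by crosslinking, and so not bound up with protein, is extracted and sequenced. A region is the union of the peaks of all 8 libraries that shared at least 1 bp, and it counts as called in each library that contributed a peak to it.

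EpH4 is a non-transformed mouse mammary gland epithelial line without the H-Ras transgene, grown in medium with 10% fetal bovine serum. EpRas is its derivative line transformed with an active H-Ras, grown in 4% serum, so that the transgene, the serum and whatever else separates the derivative line from its parent cannot be told apart. Each line was left untreated or given 1 ng/ml TGF-β3 (TGF-β below) for 8 days, and there were 2 libraries, from biological replicates, in each of the 4 groups. The medium with TGF-β was renewed and the cells were split during the culture, and the labels name no other allele or agent. As 2 libraries stand for a group, the spread below is that between these samples.

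Open chromatin is found mainly at promoters, where transcription starts, and at distal enhancers, where transcription factors bind. Factors of the AP-1, ETS and RUNX families are common occupants of enhancers in epithelial cells, and both AP-1 and ETS factors lie downstream of Ras and the MAP kinases. TGF-β drives epithelial-mesenchymal transition (EMT), in which epithelial cells give up their junctions and take on mesenchymal features.

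The regions on which the description turns most are shown first, each as the 200 bases around its center (GRCm38, the build of mm10, forward strand). AP1 sites (TGAGTCA or TGACTCA), RUNX sites (TGTGGTT or AACCACA) and ETS sites (ACGGAAA or the variant ACGGAAG, with CCGGAAA or the variant CCGGAAG beside them, or their reverse complements) are in capitals. Over all 37230 regions, a window of 200 bases held an AP1 site in 32.2%, an ETS site in 9.57% and a RUNX site in 9.11%. The matches describe the sequence and do not show that a factor was bound. The first 5 were called in every EpRas library and never in EpH4 cells, against the direction of their chromosome.
*Gprin3* intron, chr6:59412484-59412683: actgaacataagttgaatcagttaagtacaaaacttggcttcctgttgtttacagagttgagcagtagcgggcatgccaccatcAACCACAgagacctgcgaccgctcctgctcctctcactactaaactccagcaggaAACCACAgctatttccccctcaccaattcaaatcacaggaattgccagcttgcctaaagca
*Grin2b* intron, chr6:136130561-136130760: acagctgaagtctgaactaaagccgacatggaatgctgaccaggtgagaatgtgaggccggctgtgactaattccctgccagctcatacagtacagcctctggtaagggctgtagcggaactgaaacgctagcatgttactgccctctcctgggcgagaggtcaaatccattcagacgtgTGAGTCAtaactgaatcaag
*Etv5* intron, chr16:22389224-22389423: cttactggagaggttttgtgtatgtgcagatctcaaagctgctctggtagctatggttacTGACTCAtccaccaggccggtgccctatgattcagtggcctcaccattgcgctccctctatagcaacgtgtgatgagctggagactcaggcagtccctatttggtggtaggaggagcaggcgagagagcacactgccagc
intergenic near *Igf2bp2*, chr16:22182424-22182623: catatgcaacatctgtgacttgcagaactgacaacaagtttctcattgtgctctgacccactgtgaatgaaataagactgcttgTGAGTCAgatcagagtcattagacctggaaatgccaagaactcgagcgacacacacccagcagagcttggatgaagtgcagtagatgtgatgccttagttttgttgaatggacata
*Runx1* promoter, chr16:92697312-92697511: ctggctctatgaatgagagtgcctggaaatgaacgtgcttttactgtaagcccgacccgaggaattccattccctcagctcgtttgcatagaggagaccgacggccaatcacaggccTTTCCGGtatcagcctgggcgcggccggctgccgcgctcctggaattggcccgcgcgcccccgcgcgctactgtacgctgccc

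The next 2 were called in all 4 EpH4 and no EpRas library, and the last in all 8 libraries. In the last window a stretch of 36 bases occurs again at a distance of 121 bases, and both marked RUNX sites lie in it. Its gene name gives the position only, and its score is not read as accessibility of *Chl1*.
*Ccser1* intron, chr6:61225477-61225676: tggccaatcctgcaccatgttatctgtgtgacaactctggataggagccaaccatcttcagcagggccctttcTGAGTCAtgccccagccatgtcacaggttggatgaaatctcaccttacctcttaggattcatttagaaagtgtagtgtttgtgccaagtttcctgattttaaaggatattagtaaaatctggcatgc
intergenic near *Ets2*, chr16:95682398-95682597: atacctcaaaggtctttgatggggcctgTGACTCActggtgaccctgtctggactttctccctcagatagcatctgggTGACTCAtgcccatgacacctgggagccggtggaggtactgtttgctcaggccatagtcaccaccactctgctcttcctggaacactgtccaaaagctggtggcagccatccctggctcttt
*Chl1* intron, chr6:103649075-103649274: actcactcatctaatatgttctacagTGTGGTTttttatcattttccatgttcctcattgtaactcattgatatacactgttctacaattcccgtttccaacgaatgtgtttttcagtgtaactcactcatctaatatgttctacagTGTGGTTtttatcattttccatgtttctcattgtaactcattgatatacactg

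The 200 bases at *Etv5*, *Grin2b*, *Igf2bp2* and *Ccser1* each held 1 AP1 site, and those near *Ets2* held 2. The *Gprin3* window held 2 RUNX sites and no AP1 site, and the *Runx1* window held 1 ETS site. AP1 sites thus stood in regions of both directions.

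The libraries held 12462, 13092, 17927 and 10821 peaks in EpH4 cells and 17210, 13784, 27337 and 16833 in EpRas cells (here and below in the order untreated replicates 1 and 2, then TGF-β replicates 1 and 2). The number of reads behind a list was unknown. Among the 6 mammary epithelial markers examined, a promoter peak at *Cdh1* (E-cadherin) was called in 4 EpH4 and 0 EpRas libraries, at *Cldn4* (claudin-4) in 4 and 1, at *Krt8* (keratin 8) in 3 and 2, at *Krt18* (keratin 18) in 2 and 1, at *Esrp2* (an epithelial splicing factor) in 2 and 2, and at *Epcam* in 0 and 0. By these promoter peaks the epithelial label was borne out more fully by the EpH4 than by the EpRas lists, mainly through *Cdh1* and *Cldn4*. The lines differed little or not at all at *Krt8*, *Krt18*, *Esrp2* and *Epcam*. Of the 7 markers of other cell types, *Pdgfra* had a promoter peak in 2 libraries of each line and the remaining 6, of fibroblasts, endothelium, leukocytes and adipocytes, had none in any library.

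Chromosome 6 carried 784, 808, 1155 and 736 peaks in the EpH4 libraries and 725, 552, 1219 and 734 in the EpRas libraries. These numbers overlapped between the lines, although the EpRas lists were mostly longer. As a share of the library's peaks they were 6.29, 6.17, 6.44 and 6.80% in EpH4 cells and 4.21, 4.00, 4.46 and 4.36% in EpRas cells. The mean share was 6.43% ± 0.273 in EpH4 cells and 4.26% ± 0.198 in EpRas cells (SD, n = 4 each), a ratio of 0.663. No EpRas share came near the lowest EpH4 share. The Wilson 95% intervals of the single shares, which cover counting error only, reached from 5.77 to 7.29% in EpH4 and from 3.69 to 4.71% in EpRas libraries.

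Chromosome 16 carried 491, 484, 700 and 443 peaks in the EpH4 libraries and 498, 386, 815 and 491 in the EpRas libraries. The shares were 3.94, 3.70, 3.90 and 4.09% in EpH4 cells and 2.89, 2.80, 2.98 and 2.92% in EpRas cells. The means were 3.91% ± 0.163 and 2.90% ± 0.0749 (SD, n = 4 each), a ratio of 0.741. The lines again did not overlap.

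**Figure D1:**
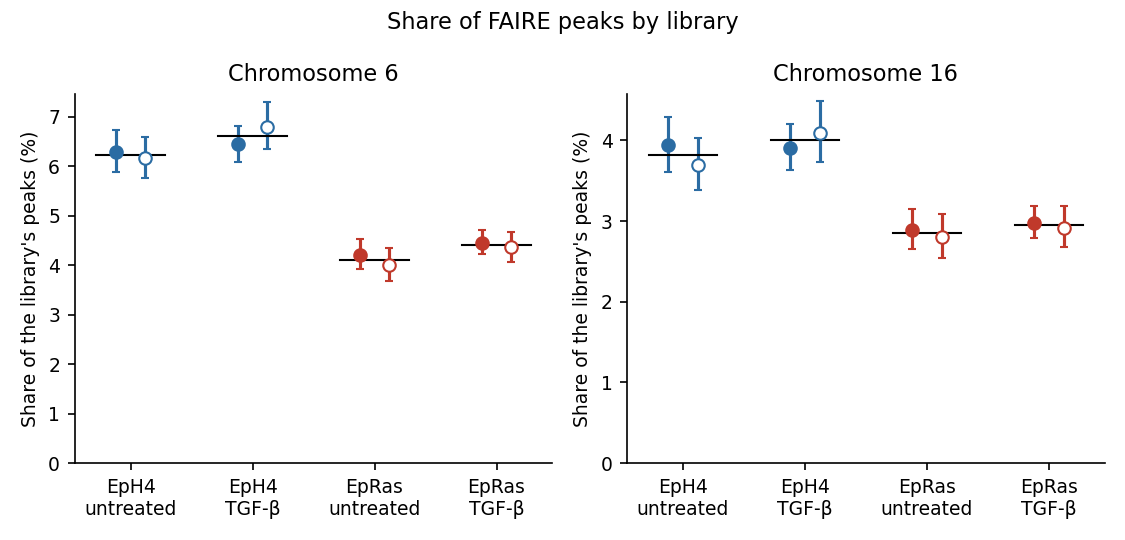
Share of each library's FAIRE peaks that lay on chromosome 6 (left) and chromosome 16 (right), in percent. Points are libraries (filled, replicate 1, open, replicate 2) with Wilson 95% intervals, black lines are group means, EpH4 is blue and EpRas red. On both chromosomes every EpRas point lies below every EpH4 point, with means of 4.26% against 6.43% and 2.90% against 3.91%.

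Since these shares are what the chromosomes were chosen by, they are given without a test. Shares that did not overlap and were lower in EpRas cells occurred on 30% of the 20 chromosomes (autosomes and X). On the log2 scale the ratio was −0.59 for chromosome 6, the lowest of these chromosomes, and −0.43 for chromosome 16. Chromosome 5, which is not described further here, stood between them with −0.43 as well. The ratio was nearly the same in untreated cells (−0.60 for chromosome 6 and −0.42 for chromosome 16) and in TGF-β-treated cells (−0.59 and −0.44). Promoter peaks (midpoint within 2 kb of an annotated transcription start site) and distal peaks were both lower in EpRas cells, with log2 ratios of −0.51 and −0.65 on chromosome 6 and −0.37 and −0.47 on chromosome 16. With the lists cut to the same 10821 highest-scored peaks the ratios were −0.78 and −0.52.

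Along chromosome 6 the lower share was found in every one of the 15 bins of 10 Mb. In 14 of them (93.3%) every EpRas share lay below every EpH4 share, against 21.3% of the 263 bins of the genome with at least 20 regions. The log2 ratio of the bins had a median of −0.53 and ranged from −1.55 to −0.40. The bin from 60 to 70 Mb was the lowest. It held 26, 29, 38 and 28 peaks in EpH4 cells and 13, 8, 28 and 12 in EpRas cells, which is 0.209, 0.222, 0.212 and 0.259% of the peaks against 0.0755, 0.058, 0.102 and 0.0713%. The next bin, from 70 to 80 Mb, had a log2 ratio of −0.90, and its shares were 0.374% ± 0.0363 and 0.201% ± 0.00595 (SD, n = 4 each).

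The lower share was found over most of the lowest bin. Between 60 and 62 Mb, where *Ccser1* lies, the 4 EpH4 lists held 28 peaks together and the longer EpRas lists 13. Between 66 and 68 Mb there were 66 and 32, and between 64 and 66 Mb 18 and 7. The log2 ratios of these 3 stretches were −1.78, −1.63 and −1.82. The stretch from 62 to 64 Mb held 8 and 9 peaks. It had 4 regions, so that little can be read from it. The bin from 100 to 110 Mb was the only one of chromosome 6 in which the lines overlapped, with shares of 0.193 to 0.284% in EpH4 and 0.152 to 0.194% in EpRas libraries. The first and the last bin of the chromosome had the mildest ratios, −0.41 and −0.40.

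Chromosome 16 was less uniform. All 10 bins had a lower mean share in EpRas cells, but the lines did not overlap in only 5 (50%). Those 5 were the bins between 10 and 50 Mb and the last one, from 90 Mb to the end, with log2 ratios from −0.56 to −0.47. The bin from 20 to 30 Mb, the lowest, held 78, 79, 106 and 72 peaks in EpH4 and 73, 60, 124 and 62 in EpRas cells. From 50 to 60 Mb the ratio was −0.08 and from 70 to 80 Mb −0.01, with shares of 0.262% ± 0.0356 against 0.248% ± 0.0180 and of 0.127% ± 0.0405 against 0.126% ± 0.0279 (SD, n = 4 each). These middle bins were sparse, with 104 and 66 regions. From 50 to 60 Mb the EpRas lists together held more peaks than the EpH4 lists in every stretch of 2 Mb. Only in the first 2 was the share higher too, with 29 against 17 and 17 against 9 peaks and log2 ratios of shares of 0.29 and 0.46.

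**Figure D2:**
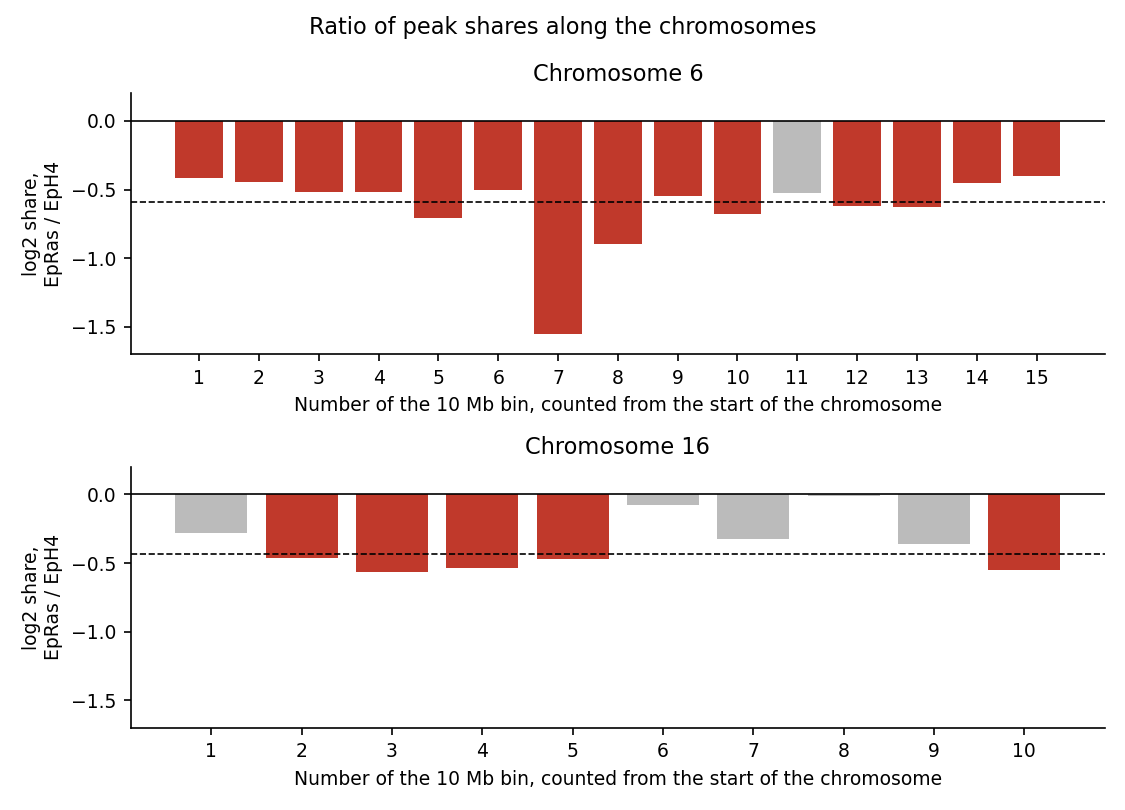
Log2 ratio of the mean share of peaks, EpRas over EpH4, in 10 Mb bins numbered from the start of chromosome 6 (top) and chromosome 16 (bottom). Red bars mark bins in which every EpRas library lay below every EpH4 library, gray bars those that overlapped, and the dashed line is the ratio of the whole chromosome. Bin 7 of chromosome 6 reaches −1.55, and bins 6 and 8 of chromosome 16 lie at −0.08 and −0.01.

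The calls made in every library of 1 line were then followed in the other. Of the 391 chromosome 6 regions called in all 4 EpH4 libraries, 214 (54.7%) were called in all 4 EpRas libraries, 83 in 3, 44 in 2, 30 in 1 and 20 (5.12%) in 0. Of the 220 such regions on chromosome 16, 139 (63.2%) were called in all EpRas libraries and 13 (5.91%) in 0. On the other chromosomes 73.4% of 5320 such regions were called in all EpRas libraries and 4.64% in 0. These pooled values cover a wide spread. Among autosomes and X, the share called in all EpRas libraries ranged from 50% on X (30 regions) to 85.2% on chromosome 12. It was 54.1% on chromosome 5, also below chromosome 6, and 61.8% on chromosome 13, below chromosome 16. The share called in 0 ranged from 1.72% on chromosome 7 to 10.0% on chromosome 13. It was above that of chromosome 16 on chromosomes 2, 5, 15 and X too. These shares are those of the full lists, of which the EpRas lists were mostly longer.

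In the opposite direction, 314 regions of chromosome 6 were called in all 4 EpRas libraries, of which 68.2% were called in all EpH4 libraries and 14 (4.46%) in 0. For chromosome 16 the values were 59.9% and 7 regions (3.02%) of 232. On the other chromosomes they were 47.8% and 8.75% of 8172. Among autosomes and X the first value was highest on chromosome 6. On chromosomes 5 (61.2%) and 19 (64.8%) it was above that of chromosome 16.

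**Figure D3:**
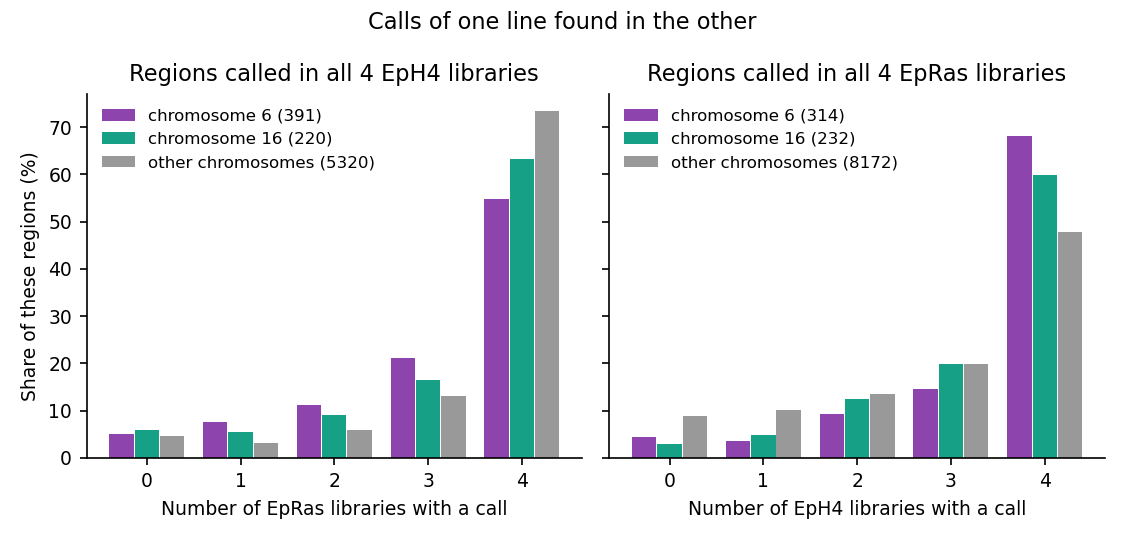
Regions called in all 4 libraries of EpH4 (left) or EpRas (right), split by the number of libraries of the other line in which they were also called (x axis), as a percent of those regions (y axis). Numbers in brackets are the regions followed. With the other chromosomes pooled (gray), chromosome 6 (purple) has the lowest bar for 4 EpRas libraries on the left, 54.7% against 73.4%. It has the highest bar for 4 EpH4 libraries on the right, 68.2% against 47.8%. Within the gray bar on the left, chromosome 5 alone had 54.1% and X 50%.

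The score that the peak caller gave each peak moved in the same direction as the calls. The score has no stated unit, so each was replaced by its percentile in its own list. The 214 regions of chromosome 6 called in all 8 libraries had median percentiles of 77.9, 75.8, 84.7 and 74.7 in EpH4 and 67.1, 59.7, 79.2 and 65.6 in EpRas libraries. Relative to the common regions of the chromosomes other than 6 and 16, they stood 5.08, 2.18, 3.70 and 6.99 points higher in EpH4 libraries. In EpRas libraries they stood lower, at −13.8, −16.3, −9.21 and −14.2 points. The means were 4.49 ± 2.05 and −13.4 ± 2.98 points (SD, n = 4 each), which is a shift of −17.9 points. Of the chromosomes only chromosome 5 shifted further down.

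The 139 common regions of chromosome 16 stood at −3.31, −0.34, 1.90 and 3.63 points in EpH4 and at −3.45, −9.36, −6.98 and −6.90 points in EpRas libraries. The shift was −7.14 points, and the first untreated libraries of the lines stood side by side. Chromosomes 5, 6, 9, 13 and X shifted further down. Chromosome 9 went from −1.83 points in EpH4 to −9.61 in EpRas cells, and chromosome 13 from 0.763 to −6.78. In single regions, the rank among the common regions was lower in EpRas cells for 177 of 214 (82.7%) on chromosome 6 and 93 of 139 (66.9%) on chromosome 16, against 47.1% of 3906 elsewhere. The rank was lower in every EpRas than in every EpH4 library at 26 regions of chromosome 6 (12.1%) and 6 of chromosome 16 (4.32%), against 4.53% of all 4259 common regions. It was higher in every EpRas library at 1 and 3 regions, against 4.27%. Promoters and distal regions of chromosome 6 shifted alike, with median rank shifts of −17.6 and −14.7 points, and those of chromosome 16 by −4.36 and −9.68 points.

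**Figure D4:**
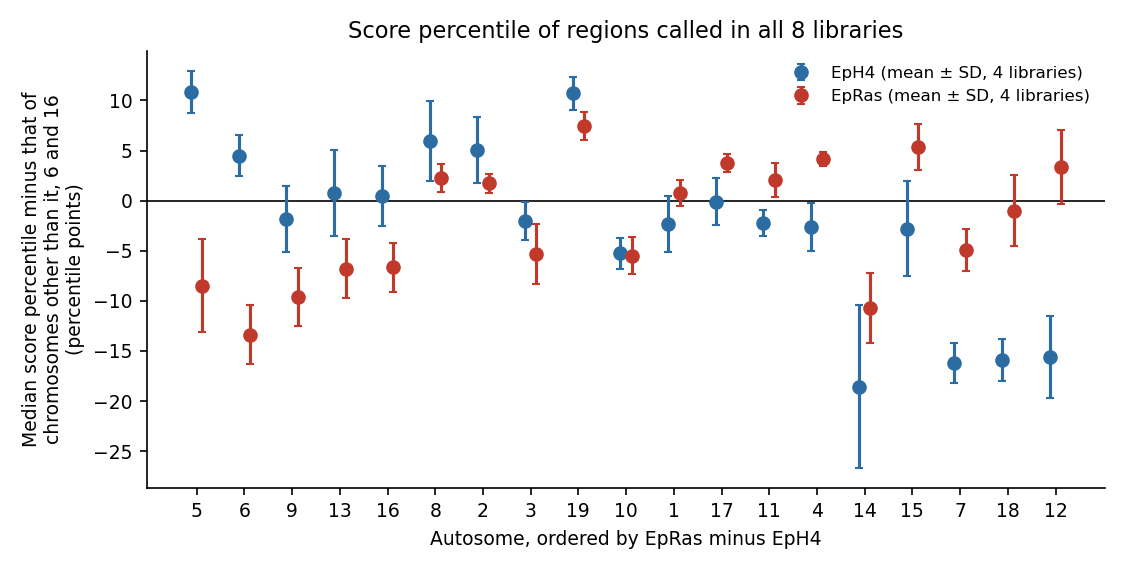
Median score percentile of regions called in all 8 libraries, relative to that of the common regions on chromosomes other than the one shown, 6 and 16 (y axis, percentile points), for each autosome (x axis, ordered by EpRas minus EpH4). Points are means of 4 libraries and bars are SD, EpH4 blue and EpRas red. Chromosome 6 goes from 4.49 points in EpH4 to −13.4 in EpRas cells.

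Against the direction of their chromosome, 14 regions of chromosome 6 (0.718%) and 7 of chromosome 16 (0.574%) had a call in all 4 EpRas libraries and none in EpH4 cells, compared with 1.98% of all regions. The opposite pattern, called in all 4 EpH4 and no EpRas library, was held by 20 (1.03%) and 13 (1.07%), compared with 0.752% of all regions. With equal list lengths the numbers for EpRas were 2 (0.144%) and 3 (0.356%), compared with 1.12% of the 24981 regions that then remained. For EpH4 they were 47 (3.39%) and 18 (2.14%), compared with 1.55%. The EpRas regions that kept 4 calls on the equal lists lay in *Grin2b* and *Gprc5a* on chromosome 6 and in *Etv5*, near *Igf2bp2* and far from any coding gene on chromosome 16. Of the 21 EpRas regions 10 were intronic, 6 intergenic and 5 at promoters. Their median GC content was 48.2%, and the median of their mean score percentile was 39.9, compared with 54.4 for the 33 EpH4 regions. This median was 38.7 against 54.9 on chromosome 6 but 49.7 against 53.0 on chromosome 16. Over the genome the regions of these patterns had 48.8 against 51.6. An AP1 site in the 500 bp around the midpoint was found in 5 of the 12 distal EpRas regions of chromosome 6 and in all 4 of chromosome 16, and in 59.6% of the 570 such regions of the genome.

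On chromosome 6 the 5 highest-scored EpRas regions were all intronic. The first, in an intron of *Gprin3*, a member of a family that binds G proteins in growing neurites, lay at chr6:59412413-59412755, 13.7 kb from the start site. Its score percentiles were 89.9, 58.0, 80.8 and 24.0 in the EpRas libraries. The second, at chr6:84266816-84267154, lay in an intron of an annotated transcript, 41.7 kb from the nearest start site (*Gm44127*), with percentiles of 83.5, 69.4, 77.2 and 20.5. In both, the second TGF-β-treated library gave the lowest score. The third, at chr6:136130490-136130832 in *Grin2b*, which encodes a subunit of the NMDA glutamate receptor, had percentiles of 40.2, 36.7, 74.7 and 75.6. The fourth lay 9.14 kb from the start of *Gprc5a*, a retinoic acid-inducible receptor of epithelia, with 60.8, 42.8, 71.2 and 51.4. The fifth, at chr6:119415180-119415623 in *Adipor2*, an adiponectin receptor, had 16.7 and 18.4 in untreated and 80.2 and 72.5 in TGF-β-treated cells. Among these 5, both treated libraries lay above both untreated ones at *Grin2b* and *Adipor2*, an ordering that was not tested.

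The other 9 EpRas regions of chromosome 6 had mean percentiles from 10.3 to 43.6. One of them, at chr6:17589704-17589989, lay within 20 kb of the end of *Met*, which encodes the receptor of hepatocyte growth factor, and another at the start site of *Zfand4*.

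On chromosome 16 the highest-scored EpRas region lay in an intron of *Etv5* (chr16:22389148-22389499, 47.2 kb from the start site), with percentiles of 55.7, 88.5, 85.8 and 46.4. *Etv5* encodes an ETS factor of the PEA3 group, which acts downstream of MAP kinase signaling. The region at chr16:22182308-22182740, 19.2 kb from the start of *Igf2bp2*, an RNA-binding protein gene, had 55.7, 60.5, 68.9 and 70.0. The one at chr16:79878099-79878653 lay 787 kb from the nearest coding start site, that of *Tmprss15*, and had 77.6, 41.3, 71.4 and 73.2. An intronic region of the splicing factor gene *Rbfox1* (chr16:6963539-6963898) had 45.5, 46.1, 77.7 and 29.5. The fifth was a promoter region 84 bp from a start site of *Runx1*, a RUNX family factor, at chr16:92697291-92697532, with 45.8, 53.7, 22.1 and 23.7. Both treated libraries lay below both untreated ones there, and above them at the *Igf2bp2* region. The last 2 of the 7 were promoter regions of *Psmg1*, a proteasome assembly factor, and of *Gm15983* within *Eef2kmt*.

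In the direction of the chromosome, the 5 highest-scored of the 20 EpH4 regions of chromosome 6 had mean percentiles from 72.8 to 89.7. The 5 highest of the 14 EpRas regions had 47.0 to 63.2. The first (chr6:67170282-67170633, intergenic, 5.26 kb from *A430010J10Rik*) had 91.4, 85.9, 89.3 and 92.2 and no call in EpRas cells. An intronic region of *Rassf8*, which encodes a protein with a Ras association domain, lay at chr6:145770268-145770597 and had 88.4, 77.1, 89.9 and 96.6. A promoter region of *Dnah6*, an axonemal dynein gene, had 88.8, 94.1, 71.2 and 76.9 (chr6:73221593-73221922). The intronic *Ccser1* region (chr6:61225407-61225747) had 76.3, 61.7, 77.3 and 83.1. A promoter region of *Creb5*, a bZIP factor related to CREB and ATF2, had 61.0, 85.2, 71.9 and 72.9 (chr6:53287053-53287388), while all 4 EpRas libraries had a peak in another promoter region of the gene. Of these, the first and *Ccser1* lay in the bin with the lowest ratio.

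On chromosome 16 the mean percentiles overlapped, from 56.2 to 76.5 for the 5 highest-scored EpH4 regions and from 36.3 to 69.1 for the 5 EpRas regions. The first EpH4 region was an intronic one of *Robo1*, a receptor for Slit proteins, with 46.0, 91.6, 81.8 and 86.6 (chr16:72996150-72996508). The intergenic region 19.6 kb from *Ets2*, an ETS factor and target of MAP kinases, had 83.2, 85.7, 93.1 and 43.7 (chr16:95682258-95682737). A region 9.19 kb from the start of *Gspt1*, a translation termination factor gene, had 96.6, 77.0, 75.9 and 52.2 (chr16:11263322-11263588). The region at chr16:31570776-31571194, 92.5 kb from *Dlg1*, which encodes a cell polarity scaffold, had 53.9, 7.77, 83.7 and 96.8. Among these regions, untreated EpH4 replicates differed most at the intronic one of *App*, the amyloid precursor gene, with 17.2 and 85.3, and 78.5 and 43.7 after TGF-β (chr16:85158283-85158652).

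Named loci (the gene with 20 kb on each side) were examined by the number of called regions. Of the 44 listed loci 41 had a region. The EpRas mean was lower at 18 of them (43.9%) and higher at 22, compared with 42.7% lower among 1245 coding loci of both chromosomes and 18.1% among 14496 elsewhere. Numbers in all EpRas libraries below all EpH4 libraries were found at 2 of the 41, and at 0.565% of all coding loci with a region. The reverse was found at 0 of the 41, and at 4.25% of all. The counts are not divided by list length, and the EpRas lists were mostly longer.

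The 2 loci were *Trp63*, which encodes p63, the factor of basal epithelial cells, with 5, 4, 7 and 4 regions in EpH4 and 1, 1, 2 and 1 in EpRas libraries, and *Ets2*, with 3, 3, 3 and 3 against 1, 0, 2 and 0. *Trp63* (chr16:25683763-25892102) held 2 of the regions found in EpH4 cells alone, both intronic. Among the factors of the families examined by the study, *Creb5* fell short of separation only through the first TGF-β-treated EpRas library, with 4, 4, 6 and 3 regions against 1, 1, 4 and 1. *Etv6*, an ETS factor, had 2, 2, 5 and 3 against 0, 0, 4 and 5, so that regions were called in EpRas cells only after TGF-β.

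*Runx1* and *Etv5* had more regions in EpRas cells, with 6, 6, 10 and 6 against 9, 9, 11 and 9 and with 1, 1, 2 and 2 against 3, 2, 3 and 2. Both overlapped, *Runx1* through the first TGF-β-treated EpH4 library and *Etv5* through ties. *Bach1*, a repressor of oxidative stress genes, had 2, 2, 2 and 1 against 1, 0, 5 and 3. *Gabpa* and *Cebpd* had 1 region each, called in 4 and 3 and in 0 and 1 libraries of the lines, and *Erg* had none.

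Of the 7 Ras-MAPK loci the mean was lower in EpRas cells at 4 and higher at 3. *Tgfa*, a ligand of the EGF receptor, had 2, 2, 2 and 0 regions against 1, 0, 2 and 0. *Met* had 4, 4, 6 and 5 against 4, 4, 8 and 4. Neither separated the lines. Of the 9 junction and adhesion loci 2 were lower and 4 higher. *Alcam*, a cell adhesion molecule, had 0, 1, 3 and 1 regions against 2, 2, 7 and 3, and *Cd47* had 0, 1, 1 and 0 against 2, 1, 4 and 1. *Cldn1* (claudin-1) and *Nectin3* had none. Of the 6 EMT, basal and mesenchymal loci 3 were lower and 3 higher, and *Lpp*, which encodes an adhesion protein of the zyxin family, had 7, 9, 7 and 5 against 9, 10, 18 and 8. *Snai2* (Slug) had 0, 1, 1 and 0 against 1, 1, 1 and 1.

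The 4 loci of matrix proteases and their inhibitor were split evenly, as *Adamts5* had 1, 0, 1 and 1 regions in EpH4 cells and 0 in every EpRas library while *Adamts1* had 1, 1, 0 and 1 against 0, 0, 2 and 2. At the cell cycle loci *Cdkn1b*, an inhibitor of cyclin-dependent kinases, had 1, 0, 0 and 0 against 2, 1, 2 and 1. *Foxp1*, a forkhead factor among the reference loci, had 6, 5, 9 and 7 against 2, 1, 7 and 0, and the widely used reference gene *Gapdh* had 2, 1, 2 and 2 against 2, 1, 2 and 1.

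**Figure D5:**
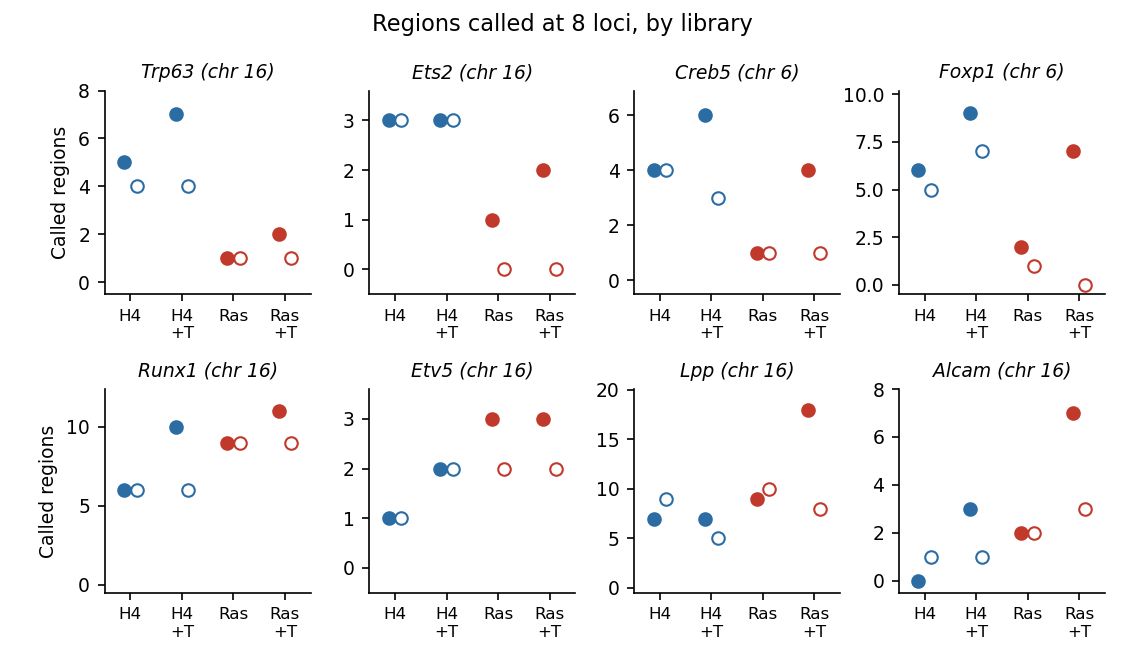
Number of called regions (y axis) at 8 of the listed loci in each library (H4, EpH4, Ras, EpRas, +T, with TGF-β). Filled points are replicate 1 and open points replicate 2, EpH4 blue and EpRas red. *Trp63* and *Ets2* separate the lines with fewer regions in EpRas cells, while *Runx1*, *Etv5*, *Lpp* and *Alcam* have higher EpRas means.

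Of the 1245 coding loci of both chromosomes with a region, 17 had fewer regions in every EpRas than in every EpH4 library and 5 had more, compared with 0.565% and 4.25% of all 15741 such loci. The 22 genes are named here after their values were seen. Lower were, on chromosome 6, *Slc23a4*, *Zyx*, *Epha1*, *Atoh8*, *Elmod3*, *Nup210*, *Rbsn*, *Frmd4b*, *Pdzrn3* and *Tuba8*, and on chromosome 16 *Ppm1f*, *Trp63*, *Atp13a4*, *Lsamp*, *Robo1*, *Ets2* and *Zbtb21*. The loci of *Epha1*, an ephrin receptor gene, and *Zyx*, which encodes the focal adhesion protein zyxin, overlap. *Epha1* had 3, 3, 5 and 3 regions in EpH4 and 1 in each EpRas library. *Tuba8*, a tubulin gene, had 2, 2, 3 and 3 against 0 in every EpRas library. Higher were *Tril* and *Gprin3* on chromosome 6 and *Psmg1*, *Alg1* and *Eef2kmt* on chromosome 16, the last 2 sharing their regions.

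TGF-β is a contrast that played no part in the choice of the chromosomes, so it was tested. Treatment labels were permuted within each line, which gives 36 assignments and no p-value under 0.0556, so that no result could pass 0.05. On chromosome 6 the share of peaks was higher with TGF-β in both lines, by 0.391 points in EpH4 cells and by 0.301 in EpRas cells. Both treated libraries lay above both untreated ones in each line, which was so on 15% of the 20 chromosomes. The mean effect of 0.346 points had the smallest possible p-value (exact two-sided permutation, p = 0.0556 and adjusted p = 0.278 over 10 tests). Cutting all lists to equal length lowered this effect to 0.226 points, and its p-value was then not the smallest possible (exact permutation test, p = 0.167, adjusted p = 0.417). Keeping only peaks scored at or above the median of all lists raised the effect to 0.609 points (exact permutation test, p = 0.0556, adjusted p = 0.278). On chromosome 16 the effect was 0.141 points (exact permutation test, p = 0.167, adjusted p = 0.370), and the EpH4 libraries overlapped. The effects of the lines differed by −0.0896 points on chromosome 6 and −0.0788 on chromosome 16 (exact permutation of line labels within treatments, p = 0.833 for both, adjusted p = 0.833). The permuted labels carry the difference between the lines that chose the chromosomes, so this p-value cannot decide whether the TGF-β effects differ.

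The share of promoter peaks among the peaks of chromosome 6 was 37.2, 36.5, 32.1 and 34.9% in EpH4 and 38.5, 41.5, 30.0 and 31.9% in EpRas libraries. Every treated library was below every untreated one of its line, and the mean effect was −6.19 points (exact two-sided permutation, p = 0.0556 and adjusted p = 0.278). On chromosome 16 the share was 35.8, 38.8, 35.1 and 38.1% in EpH4 and 39.6, 42.0, 31.8 and 33.2% in EpRas libraries. The difference of −4.49 points (exact permutation test, p = 0.111, adjusted p = 0.370) came to −0.698 points for EpH4 and to −8.28 for EpRas cells. The peaks of the other chromosomes had promoter shares of 42.1, 41.6, 38.3 and 41.0% and of 41.2, 42.4, 33.4 and 36.3%, in the same order. There too every treated library was below every untreated one of its line, and the treated EpRas libraries stood lowest. The fall was thus not particular to chromosome 6 in either line. The treated replicates 1 were also the longest lists of each line, and with lists of equal length the effects were −4.60 points on chromosome 6 and −3.60 on chromosome 16 (exact permutation test, p = 0.0556 and p = 0.222, adjusted p = 0.417 and 0.444).

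AP1 sites were found in the 500 bp around the midpoint of 46.7, 50.3, 49.0 and 48.6% of the distal peaks of chromosome 6 in EpH4 and of 50.7, 51.1, 52.4 and 55.8% in EpRas libraries. The TGF-β effect was 1.76 points (exact permutation test, p = 0.222, adjusted p = 0.370). On chromosome 16 the shares were 50.8, 52.7, 49.3 and 52.2% and 50.8, 53.6, 54.3 and 56.1%, with an effect of 1.01 points (exact permutation test, p = 0.500, adjusted p = 0.625). That effect was 5.86 points with lists of equal length and 6.18 points with the higher-scored peaks (exact permutation test, adjusted p = 0.417 and 0.317). In EpRas cells both treated libraries were above both untreated ones on both chromosomes, as they were on the other chromosomes with 50.2 and 51.6% untreated and 51.7 and 55.4% treated. The score percentile of the common regions, relative to the other chromosomes, moved by 2.52 points on chromosome 6 (exact permutation test, p = 0.222, adjusted p = 0.370) and by 2.03 points on chromosome 16 (exact permutation test, p = 0.333, adjusted p = 0.476).

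Regions called in all 4 treated and no untreated library numbered 14 on chromosome 6 (0.718%) and 3 on chromosome 16 (0.246%), compared with 0.32% of all regions. The opposite pattern, in all 4 untreated and no treated library, was held by 7 of all 37230 regions (0.0188%) and by 0 on these chromosomes, too few to compare. Both treated EpRas libraries and no other called 55 regions of chromosome 6 (2.82%) and 43 of chromosome 16 (3.53%), compared with 4.21% of all. These 98 regions were mostly distal (91), and 49 lay in introns. An AP1 site was found in 60.4% of the 91, compared with 46.5% of the 2249 distal regions of both chromosomes and with 58.9% of the 1259 distal regions of the same pattern elsewhere. Their median GC content was 44.2%, against 48.6% for all regions of both chromosomes and 45.4% for the same pattern elsewhere.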

How the data were processed

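FAIRE DNA of the 8 samples was sequenced on an Ion Proton. The authors trimmed reads to 36 bp, used Bowtie2 for alignment to mm10, and MACS2 2.0.9 for peak calling. Each deposited list gives the position and a score of every peak, the meaning of which is not given in the sources used here. In the main results the scores entered only as the percentile within their own list (the percent of the list's peaks with the same or a lower score). The alternative with higher-scored peaks instead cut all lists at the same raw score, the median of 15.51. The lists hold no reads, and depth was unknown. The Wilson 95% intervals of shares cover counting error only.

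Peaks of all lists that shared at least 1 bp were merged into 37230 regions. Classes came from GENCODE vM21 on GRCm38, with promoters within 2 kb of any of 77198 start sites, and motifs were searched on both strands in the 500 bp around midpoints. Bins had 10 Mb and at least 20 regions, and loci were genes with 20 kb on each side. The line contrast, which chose the chromosomes, was described and not tested. TGF-β effects were tested by exact two-sided permutation within lines, adjusted by Benjamini-Hochberg over 10 tests. Named regions were the 5 with the highest mean percentile per line pattern and the 3 common to all libraries on each chromosome, and named loci were those of 44 listed genes, of which some are not reported here. The members and lists were chosen with earlier results of these data known. Alternatives used lists of equal length, higher-scored peaks, other distances, windows, bins and denominators, and each library left out. The computation was tested on simulated lists. Python 3.11.15, numpy 2.4.6, pandas 2.3.3, scipy 1.17.1 and matplotlib 3.10.9 were used.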

Additional observations from a re-analysis of the deposited data

How the results depend on the processing

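The sign of the EpRas over EpH4 ratio held on both chromosomes under every alternative computed for it. With lists of equal length, the log2 ratio was −0.78 on chromosome 6 and −0.52 on chromosome 16, the score shift of chromosome 6 was −22.4 points, and regions called in EpRas cells alone numbered 2 and 3, with 47 in EpH4 cells alone on chromosome 6. With only the peaks that scored at or above the median of all lists, the ratios were −0.86 and −0.50, the shift of chromosome 6 was −13.4 points, EpRas regions numbered 0 and 2 and EpH4 regions 8 and 2, and the TGF-β effect on the score percentile of chromosome 16 turned to −2.42 points. When scores were ranked among the common regions, the shifts were −25.7 and −11.6 points. The cause of these changes was not tested.

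Leaving out 1 library loosened the rule on calls in every library of 1 line and none of the other. EpRas regions then numbered 14 to 28 on chromosome 6 (28 when EpRas untreated replicate 2 was left out, 27 when it was EpRas TGF-β replicate 2) and 7 to 17 on chromosome 16 (17 and 15 for the same libraries, 14 for EpRas untreated replicate 1, 13 for EpH4 TGF-β replicate 1 and 11 for EpH4 untreated replicate 2). EpH4 regions numbered 20 to 42 on chromosome 6 (42 for EpH4 TGF-β replicate 2, then 40 for EpRas TGF-β replicate 1, and 33 and 32 for EpH4 untreated replicates 2 and 1) and 14 to 26 on chromosome 16 (26 for EpH4 TGF-β replicate 2). Without 1 library, the gap between the TGF-β effects of EpRas and EpH4 cells ranged from −0.269 to 0.0898 points on chromosome 6, with 0.0898 without EpH4 TGF-β replicate 2 and 0.0144 without EpRas untreated replicate 1. On chromosome 16 it ranged from −0.200 to 0.0428, with 0.0428 without EpH4 untreated replicate 2 and 0.0158 without EpH4 TGF-β replicate 2. It was −0.416 and −0.370 with lists of equal length and −0.340 and −0.345 with the higher-scored peaks. Over the other alternatives, the effects on chromosome 6 ranged from 0.226 to 0.609 points for the share of peaks, from −7.18 to −4.60 for promoters, from 1.76 to 2.84 for AP1 sites and from 0.321 to 6.01 for the score percentile. On chromosome 16 they ranged from 0.106 to 0.270, from −8.997 to −3.60, from 1.01 to 6.18 and from −2.42 to 2.22. No TGF-β test passed 0.05 after adjustment under any alternative, with adjusted p-values from 0.185 to 1 in exact permutation tests.

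The labels do not say what a replicate number shares, and whether the numbers pair the libraries is not settled. Same-numbered libraries of a line had deviations over 263 bins that correlated at −0.157 in EpH4 and 0.234 in EpRas cells (r across bins, which share libraries). A fit with the replicate number as a block cannot go below p = 0.125 in the exact sign-flip test. In that exact test the adjusted p was 0.417 for the effect of 0.346 points on the chromosome 6 share and changed no call. The lists give no depth, so a region without a call may have been accessible below the calling limit.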

Other observations

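The highest-scored regions called in all 8 libraries stood at the top of every list. On chromosome 6 the first was the intronic *Chl1* region (chr6:103648902-103649448), *Chl1* encoding a neural cell adhesion molecule. It was followed by an intergenic region at chr6:9889793-9890309, 283 kb from the nearest start site, and a promoter region of *Gm20594* at chr6:79818108-79818506. On chromosome 16 they were a promoter region of *Litaf* (chr16:10974922-10975377), which encodes a protein of late endosomes, an intronic region of *Gnb1l* (chr16:18533045-18533472) and one in an intron shared by *Cmss1* and *Filip1l* (chr16:57391047-57391827). In the 200 bases at the center, the longest stretch of letters that occurred again in the same window had 36 bases in the *Chl1* region, at a distance of 121 bases, and 31 bases in the *Litaf* region, at a distance of 118. The RUNX sites marked in the *Chl1* window each lay in a copy of its repeated stretch. In the EpRas-only and EpH4-only regions named above the longest repeated stretch had 6 to 9 bases. For the regions called in all 8 libraries, the gene names give the position only. Whether their sequences also occur elsewhere in the genome was not tested, so their scores are not read as accessibility of the named genes. Among the lower-scored EpH4-only regions, chosen here after their values were seen, 2 lay 7.14 and 7.88 kb from *Atoh8*, a bHLH factor gene, and 2 in introns of *Sox5*, an HMG box factor gene.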
